A study of Mus musculus with 12 samples.

Results

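The EGF family ligands and ERBB receptors were described in C18-4 cells, an immortalized line made from mouse spermatogonia. They are 10 of the 17576 genes of the expression table, 7 ligands (Ereg, Areg, Hbegf, Tgfa, Btc, Epgn and Nrg1) and 3 receptors (Egfr, Erbb2 and Erbb3). The genes were chosen by name, with earlier group differences of the same libraries in view, so their levels and differences are given as a description and no p-value is printed for them. Of these, 9 could be fitted, because 9 reached 1 RPKM (a read number divided by the length of the gene and the size of the library) in at least 3 of the 12 libraries. Epgn did not.

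Poly(A) RNA was sequenced from 4 groups with 3 libraries each. All of the cells grew in DMEM/F12 medium with 10% fetal bovine serum and carried a lentivirus stably. The group 3NC carried the LV3 vector with a control shRNA. The knockdown group, KD, carried LV3 with a mixture of 3 shRNAs against the long noncoding RNA lncRNA5251. The 5NC group carried the LV5 vector without an insert, and the overexpression group, OV, carried LV5 with full-length lncRNA5251. The knockdown therefore stood only in LV3 and the overexpression only in LV5, so that between 5NC and 3NC, and between KD and 5NC, vector, shRNA and insert cannot be told apart. No source names the libraries of a group as separate cultures, and errors then measure the spread between libraries, which may be technical. The level of lncRNA5251 itself was not analysed here.

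The summed RPKM of a library lay between 533099 and 580920, and across genes 2 libraries of 1 group had a Spearman's rho of 0.987 to 0.990. No pair of libraries held identical values. RPKM keep no read numbers, so the depth in reads is unknown. Germ cell markers were sparse. Of 18 listed spermatogonial markers, 16 had a row in the table and 3 (Id4, Etv5 and Itga6) reached 1 RPKM in 3 libraries, while Ret, Pou5f1, Nanos2 and Kit were listed at 0 in all 12 libraries, and Gfra1 stayed at or below 0.17 RPKM. The summed level of the spermatogonial list was 14.6 to 16.1 RPKM in 3NC and 10.1 to 11.3 in KD. In 5NC it was 8.76 to 10.1 and in OV 7.25 to 9.24. Most of it came from Etv5, Itga6 and Id4. Mean Etv5 was 7.81 RPKM in 3NC and 2.35 in KD and mean Id4 1.56 and 0.933, whereas Itga6 rose from 5.51 to 7.26. Sertoli markers summed to between 59.5 and 67.2 RPKM in all groups, mostly from Wt1, with Sox9 at or below 0.03. Of the 9 myoid and fibroblast markers measured, 7 reached 1 RPKM in 3 libraries, and their sum was 350.3 to 364.2 RPKM in 3NC and 456.3 to 542.3 in KD, 574.9 to 585.9 in 5NC and 577.8 to 629.8 in OV. Col1a1 led the myoid and fibroblast sum and averaged 256 RPKM in 3NC against 381 in 5NC. Dcn (21.6 against 112) and Acta2 (8.52 against 21.2) were also higher in 5NC, and Tagln differed little (54.45 against 55.35). By contrast, mean Des (11.4 against 6.50), Cnn1 (4.94 against 2.83) and Pdgfra (1.32 against 0.877) were lower in 5NC. The 7 epithelial markers, led by Krt18, summed to 104.1 to 109.8 RPKM in KD and to 66.1 to 78.1 in the other 3 groups. Leukocyte markers reached at most 6.53 RPKM in sum, Leydig markers 2.39 and endothelial markers 1.05. The marker sums differed between the groups, and their part in the differences below was not tested. In bulk RNA, fewer cells of a type and less RNA per cell cannot be told apart.

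EGF family ligands are made as proteins that span the membrane, and metalloproteases such as ADAM17 and ADAM10 cut them free. Amphiregulin (Areg) and transforming growth factor alpha (Tgfa) bind the EGF receptor, whereas epiregulin (Ereg), heparin-binding EGF-like growth factor (Hbegf) and betacellulin (Btc) bind EGFR and also ERBB4. Neuregulin 1 (Nrg1) binds ERBB3 and ERBB4. ERBB2 has no known ligand and acts as the preferred partner of the other receptors, and ERBB3 has very weak kinase activity and signals through such pairs. The paired receptors act through the RAS, RAF, MEK and ERK chain and through PI3K and AKT. In the ovary Areg, Ereg and Btc pass the luteinizing hormone signal on to the oocyte's surroundings, and in the testis Sertoli and germ cells are known sources of ligands of the family.

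According to RefSeq annotation on GRCm38.p6, Epgn, Ereg, Areg and Btc are consecutive protein-coding genes on mouse chromosome 5, between Mthfd2l and Parm1. Tgfa lies on chromosome 6, Nrg1 on chromosome 8, Erbb3 on chromosome 10, and Egfr and Erbb2 on chromosome 11. The sequences before the annotated start of 3 ligands are shown because these genes took different courses. Areg had its highest level in 3NC, Tgfa its highest level in KD, and Epgn, a neighbour of Ereg, was near 0 throughout. Each is 250 bases long and ends at the base before the start, read 5′ to 3′ on the plus strand of GRCm38.p6 from the RefSeq promoter windows. The window of Areg is chr5:91139349-91139598, that of Tgfa is chr6:86194972-86195221 and that of Epgn is chr5:91027267-91027516. Capitals mark matches, on either strand, to a full cAMP response element (TGACGTCA), an AP-1 site with the letters TGACTCA, to the GC box with the letters GGGCGG, to the TATA box with the letters TATAAA or to an ETS core with the letters CCGGAA.
Areg: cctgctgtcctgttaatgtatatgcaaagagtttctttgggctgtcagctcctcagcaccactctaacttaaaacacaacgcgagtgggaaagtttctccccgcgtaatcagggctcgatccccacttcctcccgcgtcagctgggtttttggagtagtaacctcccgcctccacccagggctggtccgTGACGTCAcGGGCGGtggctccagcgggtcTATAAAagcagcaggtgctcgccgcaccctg
Tgfa: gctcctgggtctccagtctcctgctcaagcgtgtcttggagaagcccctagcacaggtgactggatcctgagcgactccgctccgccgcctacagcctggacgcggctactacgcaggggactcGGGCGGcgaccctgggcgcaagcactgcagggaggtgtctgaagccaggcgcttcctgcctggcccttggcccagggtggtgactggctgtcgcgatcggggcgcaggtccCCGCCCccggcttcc
Epgn: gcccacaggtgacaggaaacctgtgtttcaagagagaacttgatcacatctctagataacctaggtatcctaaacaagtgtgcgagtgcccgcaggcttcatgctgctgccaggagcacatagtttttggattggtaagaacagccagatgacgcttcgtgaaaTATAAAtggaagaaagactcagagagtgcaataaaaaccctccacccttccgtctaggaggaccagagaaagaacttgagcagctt
The Areg window held the full cAMP response element, whose first base lies 61 bases before the start, a GC box at 52 bases and a TATA box at 31 bases. The Tgfa window held GC boxes at 126 and 15 bases, and the Epgn window a TATA box at 86 bases. These motifs do not overlap one another. Among all 32851 windows of this length, 1.55% held the full cAMP response element, 4.46% the AP-1 site, 32.7% the GC box, 12.4% the TATA box and 12% the ETS core. The windows of Egfr (a GC box and an ETS core), Btc (no match) and Erbb2 (no match) were also searched, which makes 6 members with a window. Ereg, Hbegf, Nrg1 and Erbb3 had none. A match to these letters is a description of the sequence and not a measured site.

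Ereg, Areg and Hbegf had the same order of groups at the top, with 3NC above KD and KD above both LV5 groups. Ereg (gene 13874) was at 5.58, 5.67 and 4.95 RPKM in replicates 1, 2 and 3 of 3NC, at 1.65, 1.70 and 1.83 in KD, at 1.38, 1.45 and 1.11 in 5NC, and at 1.39, 1.10 and 1.5 in OV. Every 3NC library stood above the other 9, and the 5NC and OV libraries overlapped. Mean Ereg was 5.40 ± 0.392 RPKM in 3NC and 1.73 ± 0.0929 in KD (SD, n = 3 in each group, as for all group means below), a 3.13-fold lower mean in the knockdown.

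Areg (gene 11839) was at 4.55, 5.03 and 4.56 RPKM in 3NC, at 1.58, 1.91 and 1.89 in KD, at 0.90, 0.40 and 0.59 in 5NC, and at 0.80, 0.46 and 0.59 in OV. Here too the 3NC libraries were the highest and the LV5 groups the lowest, with KD between them and no overlap. Mean Areg was 4.71 ± 0.274 RPKM in 3NC and 1.79 ± 0.185 in KD, 0.630 ± 0.252 in 5NC and 0.617 ± 0.172 in OV, and the mean of 3NC was 7.48 times that of 5NC.

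Hbegf (gene 15200) had the highest mean of the ligands per gene length in each group, and was at 21.7, 21.8 and 23.2 RPKM in 3NC, 16.8, 17.4 and 16.0 in KD, 10.2, 10.4 and 9.86 in 5NC, and 10.8, 10.9 and 11 in OV. Hbegf lies apart from the other ligands on chromosome 18. No group of Hbegf overlapped with another. Its libraries were close to each other, with a coefficient of variation of 2.53% in 5NC and 0.826% in OV. The mean of 3NC was 1.33 times that of KD and 2.19 times that of 5NC.

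Tgfa (gene 21802) followed another order, with the knockdown at the top. It was at 2.92, 3.03 and 2.76 RPKM in 3NC, 4.92, 4.82 and 4.74 in KD, 2.12, 2.30 and 2.28 in 5NC, and 2.1, 1.97 and 2.30 in OV. Each KD library was above every other library, and 3NC was above the LV5 groups, which overlapped. The KD mean was 4.83 ± 0.0902 RPKM, 1.66 times the 3NC mean of 2.90 ± 0.136 and 2.16 times the 5NC mean of 2.23 ± 0.0987.

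Nrg1 (gene 211323) was the only one of the 7 ligands with its lowest mean in KD and its highest in the LV5 groups, an order that Egf, at under 1 RPKM, also had. Its values were 4.99, 5.90 and 4.34 RPKM in 3NC, 2.52, 2.32 and 2.16 in KD, 9.07, 9.56 and 10.2 in 5NC, and 9.55, 11.3 and 10.4 in OV. The LV5 groups overlapped with each other and with neither LV3 group. Mean Nrg1 was 5.08 ± 0.784 RPKM in 3NC and 2.33 ± 0.180 in KD, 9.61 ± 0.561 in 5NC and 10.4 ± 0.860 in OV, so the highest mean was 4.46 times the lowest.

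Btc (gene 12223) and Epgn (gene 71920), the neighbours of Ereg and Areg on chromosome 5, were low in every group. Btc was at 1.05, 1.42 and 0.93 RPKM in 3NC, 1.08, 0.82 and 1.22 in KD, 1.16, 0.72 and 0.79 in 5NC, and 0.84, 0.79 and 0.83 in OV, and groups next to each other in the order of means overlapped, although all of 3NC lay above all of OV. Epgn, which encodes the ligand epigen, was listed at 0 in 6 libraries and at no more than 0.12 RPKM in the others. Its values above 0 were 0.08 and 0.04 in 3NC and 0.04 and 0.12 in KD, 0.12 in 5NC and 0.12 in OV. All were 1, 2 or 3 times 0.04 RPKM to within 0.05 of a step. At these levels a difference in Epgn between groups was not detectable.

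**Figure D1:**
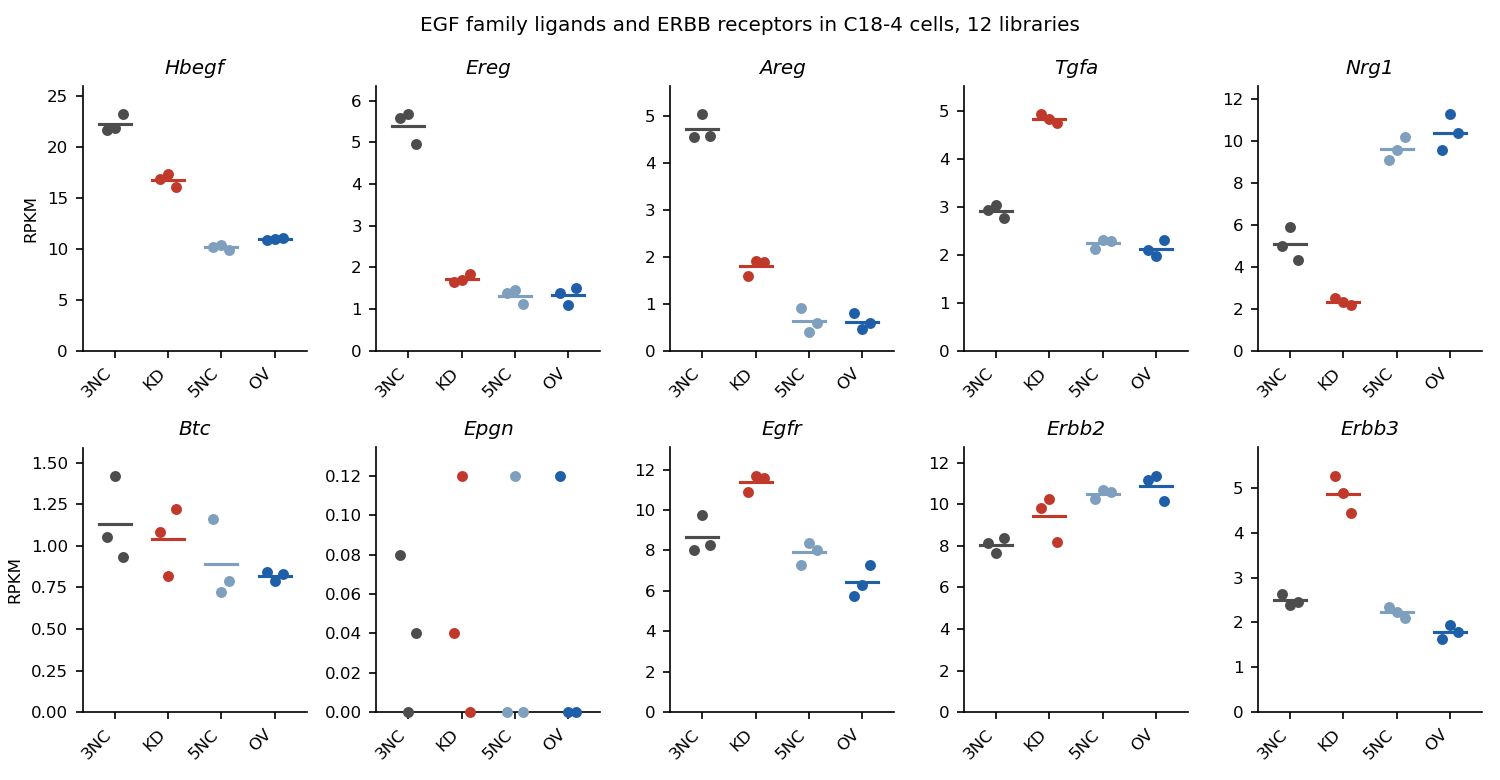
RPKM (vertical axis, linear from 0) of the 10 genes in the 4 groups (horizontal axis). Points are the 3 libraries of a group and bars their mean, which is left out for Epgn. Ereg, Areg and Hbegf are highest in 3NC, Tgfa, Egfr and Erbb3 in KD, and Nrg1 in the LV5 groups.

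The remaining family genes were low. Egf (0.30 to 0.87 RPKM over the 12 libraries), Nrg2 (0.42 to 0.81), Nrg3 (0.14 to 0.52), Nrg4 (0.25 to 0.55) and Erbb4 (0.01 to 0.15) reached 1 RPKM in no library and were not fitted. The fourth receptor of the family was thus close to the lower end of the table in every group.

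The sum of the 7 ligands and its makeup differed between the groups. It came to 41.5 ± 1.20 RPKM in 3NC and 28.5 ± 0.609 in KD, 24.8 ± 0.0681 in 5NC and 26.2 ± 0.537 in OV. Ligands that bind EGFR, which is all of them but Nrg1, summed to 36.4 ± 0.565 RPKM in 3NC and 26.2 ± 0.533 in KD, 15.2 ± 0.555 in 5NC and 15.8 ± 0.539 in OV. The sum of the EGFR ligands thus had the order 3NC, KD and then the LV5 groups, which overlapped with each other.

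Hbegf had the largest mean share in each group, at 53.6% ± 3.01 of the summed ligand RPKM in 3NC and 58.7% ± 1.15 in KD, 40.8% ± 0.961 in 5NC and 41.6% ± 0.577 in OV. In replicate 3 of 5NC and replicate 2 of OV Nrg1 took the larger share, 41.1% against 39.7% and 42.5% against 41.2%. On average Nrg1 made up 12.2% ± 1.55 in 3NC and 8.19% ± 0.559 in KD, 38.7% ± 2.25 in 5NC and 39.6% ± 2.68 in OV. Tgfa accounted for 16.9% ± 0.322 in KD and for 6.99% ± 0.198 in 3NC. Ereg and Areg were the ligands whose share was largest in 3NC. The share of Ereg was 13.0% ± 0.780 in 3NC and between 5.07% and 6.06% on average in the other groups, and that of Areg was 11.4% ± 0.327 in 3NC and 6.30% ± 0.673 in KD, 2.54% ± 1.02 in 5NC and 2.36% ± 0.703 in OV.

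**Figure D2:**
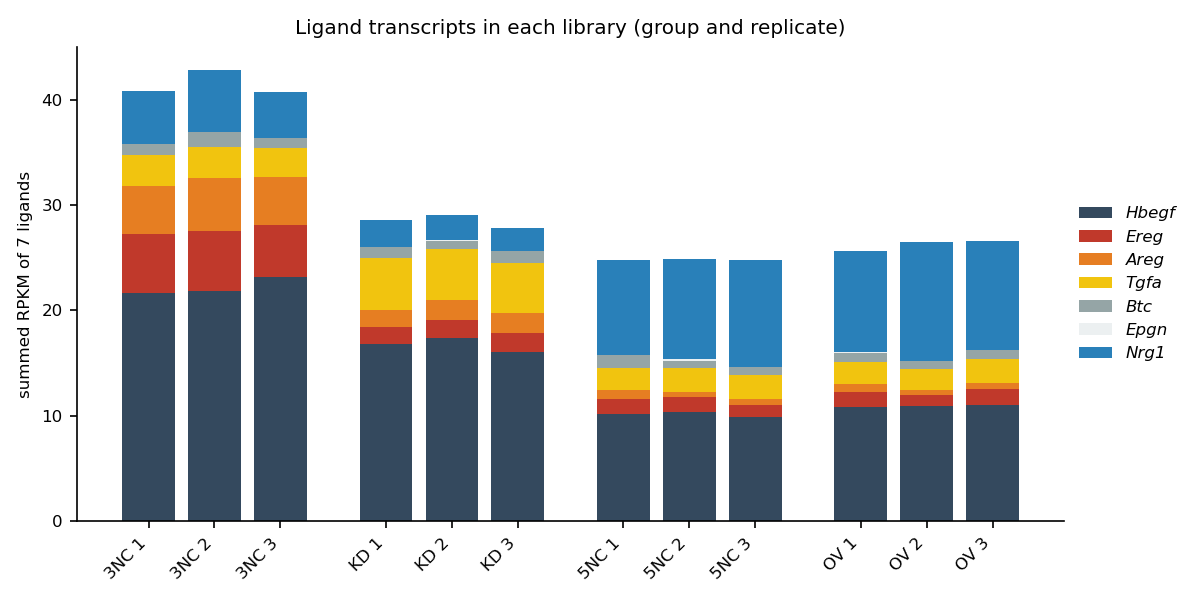
Summed RPKM of the 7 ligands (vertical axis) in each of the 12 libraries (horizontal axis, group and replicate), stacked by ligand. The 3NC libraries sum to 40.8 to 42.9, and the blue Nrg1 segment is larger in the LV5 groups than in 3NC and KD.

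Among the receptors, Egfr and Erbb3 were highest in KD. Egfr (gene 13649) was at 8.04, 9.76 and 8.26 RPKM in 3NC, 10.9, 11.7 and 11.6 in KD, 7.30, 8.39 and 8.04 in 5NC, and 5.73, 6.30 and 7.30 in OV. The KD libraries lay above all others, 5NC overlapped with 3NC, and OV met 5NC only at 7.30 RPKM. Mean Egfr was 11.4 ± 0.426 RPKM in KD, 1.31 times the 3NC mean of 8.69 ± 0.936, and it was 7.91 ± 0.557 in 5NC and 6.44 ± 0.795 in OV.

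Erbb3 (gene 13867) was at 2.63, 2.40 and 2.46 RPKM in 3NC, 5.27, 4.88 and 4.44 in KD, 2.35, 2.24 and 2.09 in 5NC, and 1.64, 1.95 and 1.79 in OV. No groups of Erbb3 overlapped, although 3NC and 5NC were only 0.05 RPKM apart at their nearest libraries. The KD mean of 4.86 ± 0.415 RPKM was 1.95 times that of 3NC and 2.18 times that of 5NC. Erbb3, the receptor that neuregulins bind, was thus highest in the group where Nrg1 was lowest.

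Erbb2 (gene 13866) varied least among the receptors, with its highest group mean 1.35 times its lowest. It was at 8.16, 7.64 and 8.37 RPKM in 3NC, 9.82, 10.3 and 8.17 in KD, 10.3, 10.7 and 10.6 in 5NC, and 11.2, 11.4 and 10.2 in OV. Replicate 3 of KD fell within the range of 3NC and the other replicates of KD lay above it.

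Summed over the 3 receptors, the level was 19.2 ± 0.502 RPKM in 3NC and 25.7 ± 1.36 in KD, 20.7 ± 0.701 in 5NC and 19.1 ± 0.542 in OV, with every KD library above the rest. The ratio of Egfr to Erbb2 averaged 1.08 ± 0.168 in 3NC and 1.22 ± 0.169 in KD, 0.752 ± 0.0378 in 5NC and 0.595 ± 0.109 in OV. Erbb3 relative to Erbb2 was 0.310 ± 0.0146 in 3NC and 0.518 ± 0.0379 in KD, 0.212 ± 0.0156 in 5NC and 0.165 ± 0.0159 in OV. Erbb2 was therefore the most abundant receptor per gene length in both LV5 groups, and Egfr was ahead of it in every KD library.

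Differences between groups were fitted with limma on log2(RPKM + 1) over 11435 genes with Benjamini-Hochberg adjustment over all of them, and fold changes are on this scale, which understates the change of low genes. The strict rule used the study's thresholds, an adjusted p of at most 0.001 with a log2 fold change of 1 or more in size. The loose rule was an adjusted p of at most 0.05. The study applied its thresholds with another method, DEGseq, so its counts of genes are not directly comparable with those here. A rule passed by a member places it among all genes and is not independent evidence, because of how the members were chosen. The comparisons share control libraries, 3NC or 5NC, and KD enters 2 of them.

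For KD against 3NC, which asks what changed with the shRNAs, Ereg (log2 fold change -1.23, SE 0.09) and Areg (-1.03, SE 0.11) passed the strict rule as lower. That is 2 of 9 members, beside 1.08% of all tested genes lower and 0.498% higher by this rule. Areg stood at the edge of the fold limit, with -0.99 without replicate 2 of 3NC and -0.98 without replicate 1 of KD, so that 1 member passed in either case. By the loose rule 4 members were lower, Ereg, Areg, Hbegf (-0.39, SE 0.05) and Nrg1 (-0.86, SE 0.09), and 4 were higher, Tgfa (0.58, SE 0.07), Egfr (0.36, SE 0.09), Erbb2 (0.20, SE 0.08) and Erbb3 (0.74, SE 0.08). Among all tested genes 23.5% were lower and 31.9% higher by this rule. Btc, at -0.06 (SE 0.11), passed neither rule. The libraries of 7 of the 9 members did not overlap between the groups, against 62.8% of all tested genes. All 3 receptors were thus on the higher side and 4 of the 5 ligands past the loose rule on the lower side. Erbb2 passed by little, and it missed the loose rule without replicate 1 (0.21) or 2 (0.16) of 3NC and without replicate 1 (0.17) or 2 (0.14) of KD, as it did in 3 other alternatives.

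For 5NC against 3NC, a comparison of the 2 control vectors, Ereg (-1.47, SE 0.09), Areg (-1.82, SE 0.11) and Hbegf (-1.06, SE 0.05) passed the strict rule as lower, 3 of 9 members beside 1.05% of all tested genes lower and 1.56% higher. By the loose rule Tgfa (-0.27, SE 0.07) was also lower, and Nrg1 (0.81, SE 0.09) and Erbb2 (0.35, SE 0.08) were higher. Across all tested genes 25.6% were lower and 31.0% higher. Btc (-0.18, SE 0.11), Egfr (-0.12, SE 0.09) and Erbb3 (-0.12, SE 0.08) passed neither rule, although the libraries of Erbb3 did not overlap. In all, 7 of 9 members did not overlap, beside 69.3% of all tested genes. Ereg and Areg were thus further below 3NC in 5NC than in KD, while Nrg1 was higher in 5NC and lower in KD. What caused these differences was not tested.

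For KD against 5NC, across the vectors, Nrg1 passed the strict rule as lower (-1.67, SE 0.09), 1 of 9 members beside 2.29% of all tested genes lower and 1.26% higher. By the loose rule 6 members were higher, Ereg (0.24, SE 0.09), Areg (0.79, SE 0.11), Hbegf (0.67, SE 0.05), Tgfa (0.85, SE 0.07), Egfr (0.48, SE 0.09) and Erbb3 (0.86, SE 0.08), beside 34.0% of all tested genes higher and 31.4% lower. Btc (0.11, SE 0.11) and Erbb2 (-0.15, SE 0.08) passed neither. Again 7 of 9 members did not overlap, beside 69.4% of all. The direction of Ereg, Areg and Hbegf in KD was thus lower against one control and higher against the other, whereas Tgfa, Egfr and Erbb3 were higher and Nrg1 lower against both. Ereg missed the loose rule without replicate 3 of 5NC (0.17), without replicate 3 of KD (0.21) and with quantile normalization (0.17). With a pseudocount of 0.1 the strict rule took 4 members, as Areg (1.43), Tgfa (1.08) and Erbb3 (1.09) then passed 1. The shares of all tested genes also rose with that pseudocount, to 2.53% higher and 3.22% lower.

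For OV against 5NC, which asks what changed with added lncRNA5251, no member passed the strict rule in limma, and 0% of all tested genes were lower and 0% higher by it. At an unadjusted p under 0.05 there were 2 of 9 members and 4240 of all tested genes (37.1%). By the loose rule Egfr was lower (-0.26, SE 0.09), 1 of 9 members beside 13.9% of all tested genes lower and 8.07% higher. Erbb3 (-0.21, SE 0.08) and Hbegf (0.10, SE 0.05) did not pass although their libraries did not overlap, 2 of 9 members beside 36.7% of all tested genes. The fold changes of Ereg (0.01, SE 0.09), Areg (-0.01, SE 0.11), Tgfa (-0.05, SE 0.07), Btc (-0.05, SE 0.11), Nrg1 (0.10, SE 0.09) and Erbb2 (0.05, SE 0.08) were each no larger than 0.10 in size. Egfr missed the loose rule without replicate 2 (-0.22) or 3 (-0.25) of 5NC and without replicate 1 (-0.19) or 2 (-0.25) of OV, as it did in 3 other alternatives. The median over the 9 members was -0.06 in KD against 3NC, -0.18 in 5NC against 3NC, 0.48 in KD against 5NC and -0.01 in OV against 5NC, beside 0.04, 0.02, 0.02 and -0.03 over all tested genes.

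**Figure D3:**
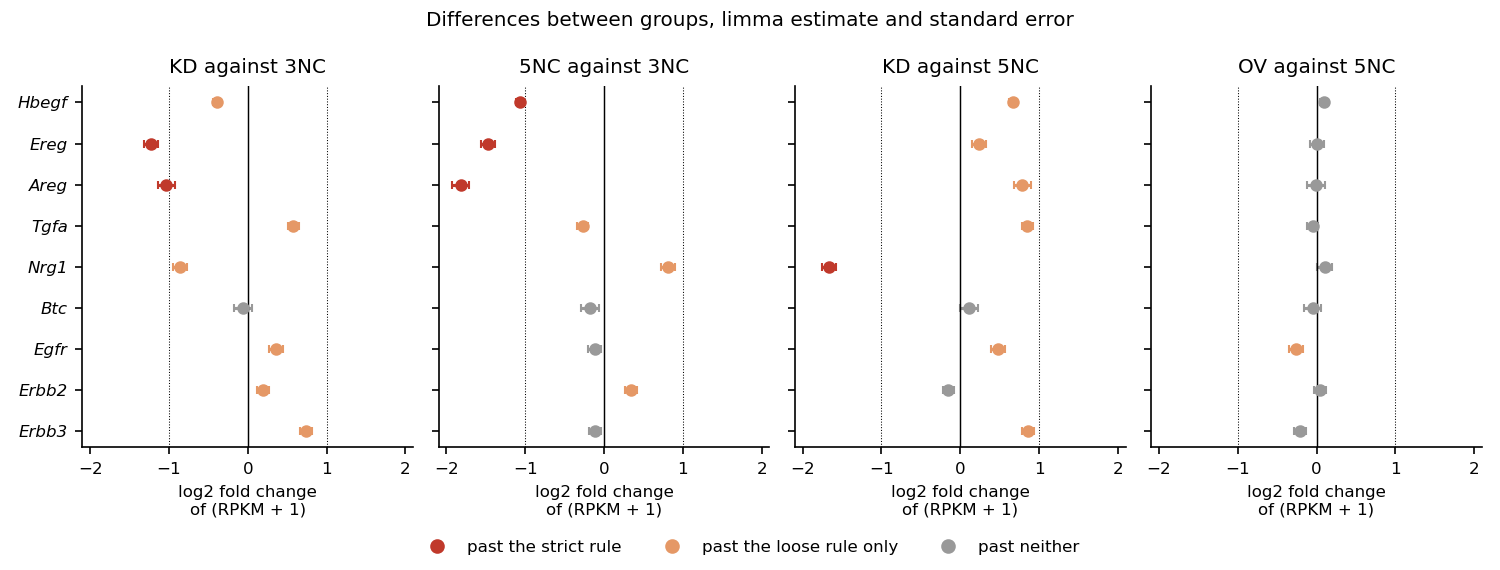
log2 fold change of (RPKM + 1) from limma (horizontal axis) of the 9 fitted members in the 4 comparisons, with bars of 1 standard error and dotted lines at the strict fold limit. Ereg and Areg lie beyond -1 against 3NC in both KD and 5NC, and no member reaches either dotted line in OV against 5NC.

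Areg had the widest range of group means, 1.83 on the scale of log2(RPKM + 1), followed by Nrg1 with 1.77 and Ereg with 1.47. The 5 tested genes with the profile nearest to Areg, by Euclidean distance of the centred log2 values over the 12 libraries, were Slc2a1 (distance 0.650), Baiap2l1 (0.705), Pgf (0.736), Hmga1 (0.744) and Ak4 (0.750), beside a median distance of 2.68 over all tested genes. Slc2a1 encodes the glucose transporter GLUT1, Pgf the placental growth factor, Hmga1 a chromatin protein and Ak4 a mitochondrial adenylate kinase. Slc2a1 was at 52.7 ± 0.928 RPKM in 3NC and 29.6 ± 1.61 in KD, 17.1 ± 0.957 in 5NC and 18 ± 1.21 in OV, also with 3NC above KD and KD above the LV5 groups. Within the family Ereg was the nearest to Areg, at a distance of 0.931 with 16 tested genes closer, then Hbegf at 1.25 with 55 closer. Nrg1 was among the farthest, at 4.55 with 11338 closer.

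**Figure D4:**
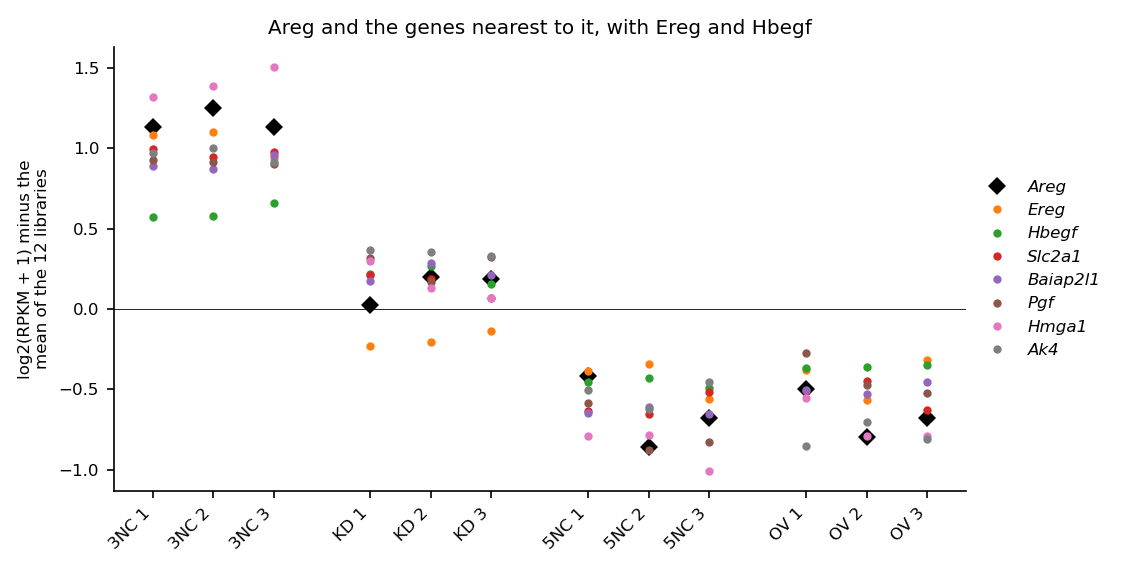
log2(RPKM + 1) minus the mean of the 12 libraries (vertical axis) for Areg (diamonds), its 5 nearest genes, Ereg and Hbegf in each library (horizontal axis). All 8 genes are above 0.5 in 3NC and below -0.2 in the LV5 groups, with KD between.

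Partners of the pathway were taken from 5 lists of genes. Each count below is set beside the shares of all tested genes given above for its comparison. The lists were drawn up with earlier results of these libraries known, and genes were named mostly by the size of their change. Their adjusted p-values therefore place them among all tested genes and are not independent evidence. Of the ligand processing genes, which release ligands or act on that step, 13 of 16 were tested (Adam12 and Rhbdl2 were too low, and Adam19 has no row under that symbol). In KD against 3NC 5 were higher and 3 lower by the loose rule, with a median log2 fold change of 0.13. Timp3, an inhibitor of ADAM17, rose by 0.49 (SE 0.06, adjusted p = 3.21e-06), and the protease gene Adam9 fell by 0.46 (SE 0.06, adjusted p = 1.49e-05). In 5NC against 3NC 4 were higher and 1 lower, with 3 past the strict rule. These were Timp3 (1.91, SE 0.06, adjusted p = 1.86e-12) and the proprotein convertases Pcsk6 (1.28, SE 0.06, adjusted p = 1.04e-10) and Pcsk5 (1.27, SE 0.08, adjusted p = 8.49e-09). Mean Timp3 was 32.5 ± 1.46 RPKM in 3NC and 46.2 ± 1.55 in KD, 124.7 ± 3.21 in 5NC and 93.2 ± 7.5 in OV. Against 5NC, the same 3 genes were past the strict rule as lower in KD, among 4 higher and 4 lower.

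Receptor inhibitors and turnover genes, of which 22 of 23 were tested, damp ERBB receptors or lead them to lysosomes. In KD against 3NC 2 were higher, 6 lower and 14 not called, with a median of -0.02. Lrig1, which binds ERBB receptors and lowers their amount, fell by 0.42 (SE 0.05, adjusted p = 5.65e-06), and Errfi1, a feedback inhibitor of EGFR, fell by 0.43 (SE 0.08, adjusted p = 0.000485). The phosphatase gene Ptprj rose by 0.58 (SE 0.07, adjusted p = 4.77e-06). In 5NC against 3NC 4 were higher and 6 lower, and Sh3kbp1 (-1.18, SE 0.06, adjusted p = 3.25e-10), an adaptor of CBL, and Lrig1 (-1.03, SE 0.05, adjusted p = 2.71e-10) passed the strict rule. Lrig1 averaged 27.6 ± 0.657 RPKM in 3NC, 20.4 ± 0.883 in KD and 13.0 ± 0.170 in 5NC. In KD against 5NC 8 were higher and 2 lower.

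Of the receptor partners, proteins that hold ligands or receptors at the membrane or fold them, 13 of 14 were tested. In KD against 3NC 3 were higher and 6 lower. Cd44, which can present heparin-binding ligands, fell by 0.67 (SE 0.06, adjusted p = 1.95e-07), and the proteoglycan gene Sdc4 fell by 0.55 (SE 0.04, adjusted p = 8.41e-08). In 5NC against 3NC 5 were higher and 5 lower, and Cd44 (-1.39, SE 0.06, adjusted p = 4.33e-11) passed the strict rule. Cd9, a tetraspanin that binds the Hbegf protein, had means of 101.9 ± 4.62 RPKM in 3NC, 119.6 ± 4.89 in KD and 61.7 ± 3.57 in 5NC. Against 5NC, 4 receptor partners were higher in KD and 5 lower.

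All 33 signal relay genes, the adaptors and kinases between receptor and nucleus, were tested. In KD against 3NC 13 were higher and 8 lower, led by the adaptor Gab1 (0.62, SE 0.05, adjusted p = 2.46e-07). In 5NC against 3NC 10 were higher and 9 lower, and Gab1 (0.96, SE 0.05, adjusted p = 1.27e-09) was again the largest. In KD against 5NC 10 were higher and 10 lower. Median log2 fold changes of this list were 0.09, 0.03 and 0.05, beside 0.04, 0.02 and 0.02 over all tested genes. No relay gene passed the strict rule in limma in these 3 comparisons, while 23, 20 and 21 of the 33 had an unadjusted p under 0.05, beside 60.4%, 61.4% and 68.2% of all tested genes.

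The ERK output list holds 16 genes known to be induced by ERK activity, 15 of them tested. Like the other lists it was drawn up with earlier results of these libraries known, so its direction is not independent evidence. In KD against 3NC 14 of the 15 were lower by the loose rule and 10 by the strict rule, with a median of -1.27. Fosl1, a subunit of AP-1, was at 31.0 ± 1.10 RPKM in 3NC and 0.983 ± 0.409 in KD (log2 fold change -4.03, SE 0.12, adjusted p = 1.07e-11). The phosphatase gene Dusp4 fell by 1.63 (SE 0.08, adjusted p = 8.27e-10), Etv4 by 1.62 (SE 0.09, adjusted p = 1.05e-09), Ier3 by 1.54 (SE 0.05, adjusted p = 1.78e-11) and Myc by 1.5 (SE 0.06, adjusted p = 4.45e-11). The count was 14 in each fit that left out 1 library.

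In 5NC against 3NC 11 ERK output genes were lower, 5 of them by the strict rule, and 1 was higher, with a median of -0.84. Fosl1 (-3.56, SE 0.12, adjusted p = 7.51e-12) and Etv4 (-2.82, SE 0.09, adjusted p = 2.14e-12) fell most, and Etv4 averaged 31.3 ± 1.02 RPKM in 3NC, 9.55 ± 1.30 in KD and 3.59 ± 0.169 in 5NC. In KD against 5NC 2 were higher and 9 lower. Etv4 rose by 1.19 (SE 0.09, adjusted p = 1.35e-08) and Myc fell by 2.03 (SE 0.06, adjusted p = 1.18e-12). Mean Myc was 34.2 ± 1.0 RPKM in 5NC and 7.63 ± 0.382 in KD. Etv5, also on the spermatogonial list, fell in 5NC by 1.11 (SE 0.08, adjusted p = 1.80e-08). Its mean was 7.81 ± 0.0854 RPKM in 3NC, 2.35 ± 0.157 in KD and 3.10 ± 0.411 in 5NC, so it was lowest in KD among these.

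In OV against 5NC the 5 lists had 35 genes past the loose rule. The counts were 1 higher and 4 lower for ligand processing, 3 and 4 for inhibitors and turnover, 4 and 2 for receptor partners, 3 and 5 for signal relay, and 8 and 1 for ERK output. None of these lists had a gene past the strict rule in limma, while 7, 10, 9, 17 and 11 of their genes had an unadjusted p under 0.05, beside 37.1% of all tested genes. Among the ERK output genes Fosl1 rose by 0.66 (SE 0.12, adjusted p = 0.00354) and Etv4 by 0.57 (SE 0.09, adjusted p = 0.0009), while Egr1 fell by 0.43 (SE 0.05, adjusted p = 9.93e-05). The total of 35 depended on single libraries. It was 18 without replicate 2 and 22 without replicate 3 of 5NC, 21, 17 and 54 without replicates 1, 2 and 3 of OV, and 22 in a fit to the 6 libraries compared. The count over all tested genes moved in the same directions, from 2518 to 1069 and 1302 without those replicates of 5NC, to 1018, 974 and 4181 without replicates 1, 2 and 3 of OV, and to 1490 in the fit to 6 libraries. By list, in the order above, the counts of 5, 7, 6, 8 and 9 ranged from 2 to 6, 1 to 13, 1 to 8, 4 to 17 and 8 to 10 with 1 library left out. The lowest counts of the first 4 lists came without replicate 2 of OV, among other libraries for 3 of them, and the highest of all 5 without replicate 3 of OV. Inhibitors and turnover had 3 genes without the filter, 4 with quantile normalization and 2 in the fit to 6 libraries. In the same order, receptor partners had 4, 4 and 2, signal relay 6, 6 and 5, and ligand processing 5, 6 and 4. ERK output had 9 or 10 in these.

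**Figure D5:**
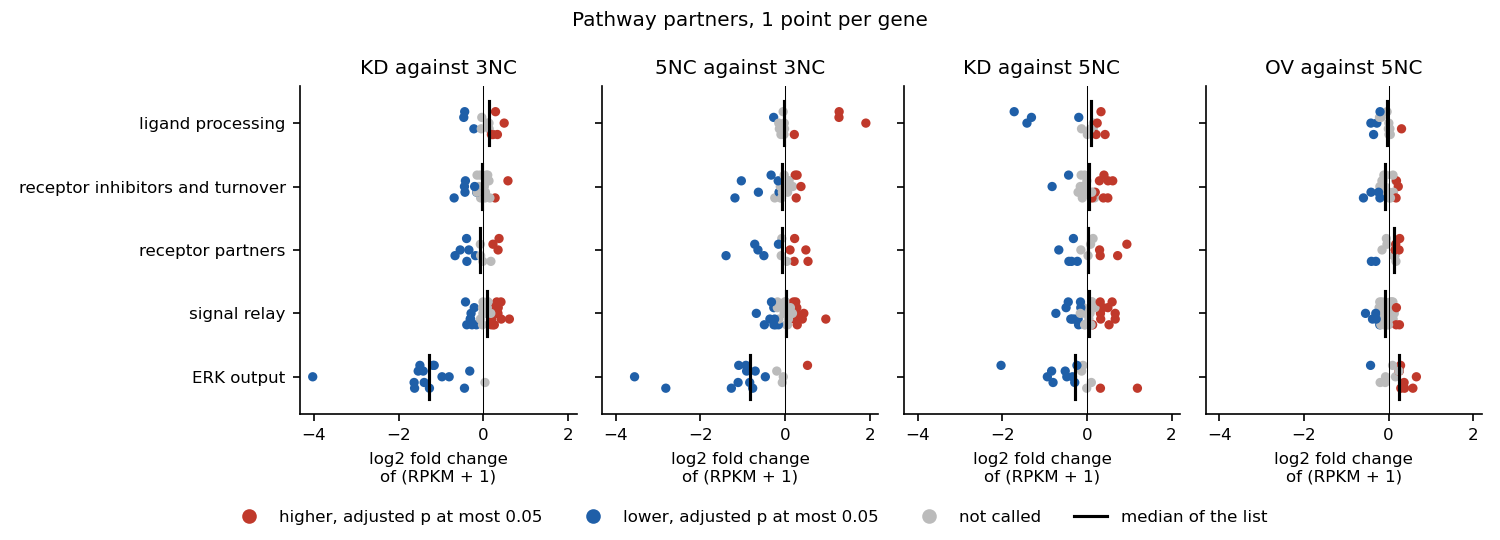
log2 fold change of (RPKM + 1) (horizontal axis) of each tested gene of the 5 partner lists in the 4 comparisons, colored by the loose rule, with the list median as a black bar. The ERK output list lies to the left against 3NC, with medians of -1.27 and -0.84, and the other 4 medians lie between -0.08 and 0.13 there.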

How the data were processed

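Libraries of C18-4 cells were sequenced on an Illumina HiSeq. The authors aligned the reads to a set of genes with SOAPaligner and deposited RPKM values of 17576 genes. The build and gene set are not given in the sources used here. The heading of that part of the supplementary methods names lncRNA8276, the labels name lncRNA5251, and the labels, which also name total RNA, were followed for the groups.

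RPKM were taken as log2(RPKM + 1). The 11435 genes that reached 1 RPKM in 3 or more libraries were fitted with limma 3.58.1 in R 4.3.3, with a group term over all 12 libraries, eBayes with trend and Benjamini-Hochberg adjustment. An exact permutation test of 3 libraries against 3 cannot go below p = 0.1 and was not used. Alternatives were a pseudocount of 0.1, no filter, quantile normalization, a fit to 6 libraries, a replicate block and each library left out.

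The members and gene lists were chosen with earlier results of these data known. Named were all family genes, at most 5 genes of each list and comparison with the largest change past the loose rule, and the 5 genes nearest to the member of widest range. Genes named outside this rule, and further comparisons given for named genes, were added after their values were seen. Promoter windows are from RefSeq on GRCm38.p6. Figures were drawn with matplotlib 3.10.9.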

Additional observations from a re-analysis of the deposited data

How the results depend on the processing

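Member counts by the strict rule were 1 to 2 in KD against 3NC when each library was left out in turn, and with a pseudocount of 0.1 they were 3 in KD against 3NC, where Nrg1 (-1.08) was added, and 4 in KD against 5NC. With that pseudocount the strict calls over all tested genes rose too, from 57 higher and 123 lower to 166 and 197 in KD against 3NC, and from 144 and 262 to 289 and 368 in KD against 5NC. In OV against 5NC the loose rule took 0 members without the filter, with quantile normalization and in the fit to 6 libraries, and 0 to 1 with a library left out. The partner lists then had 22 genes in the fit to 6 libraries and 17 to 54 with a library left out. Signs turned for values near 0 only. With a library left out, Btc ranged from -0.13 to 0.032 in KD against 3NC, and in OV against 5NC Ereg ranged from -0.055 to 0.082, Areg from -0.11 to 0.11 and Btc from -0.11 to 0.053. In that comparison Areg was also 0.0038 with a pseudocount of 0.1, and with quantile normalization Areg was 0.035, Tgfa 0.032 and Btc 0.010. The cause of these shifts was not tested. Of 396 member values under alternatives, 365 kept direction and side of the loose rule, 17 lost it, 1 gained it (Erbb2, -0.21 in KD against 5NC without replicate 2 of KD) and 13 turned.

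The replicate numbers were not taken as pairs, since no comparison had all 3 correlations of deviations from the group means over 0.1. They were -0.03, -0.13 and -0.18 in KD against 3NC, 0.18, -0.13 and 0.03 in OV against 5NC, 0.06, 0.10 and 0.05 in 5NC against 3NC, and 0.10, -0.17 and -0.02 in KD against 5NC. With the replicate block, 2, 0, 3 and 1 members passed the strict rule and 8, 1, 6 and 7 the loose rule in these comparisons, and 60, 34, 56 and 56 partner genes passed the loose rule. In 5NC against 3NC, where all 3 correlations were above 0, 6 of 6 libraries correlated best with their own number, a hint from the data of shared numbers there, and 0, 3 and 1 of 6 did in KD against 3NC, OV against 5NC and KD against 5NC.

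RPKM give no depth in reads, so low levels (Areg in the LV5 groups, Btc, Epgn) have no counting interval. With 3 libraries in a group, the spread of each gene rests in part on the estimate shared across genes.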
